A study of Mus musculus with 3 samples.

Results

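Colony-stimulating factor (CSF) receptors, their ligands, and the TREM2-TYROBP receptor pair were followed across 3 RNA-seq libraries of sorted mouse colonic macrophages. The members were taken by gene symbol: the ligands Csf1 and Il34, the receptor chains Csf1r, Csf2ra, Csf2rb, Csf2rb2, Csf3r and Trem2, and the adaptor Tyrobp. All 9 had a row in each library, out of 23997 genes. The cells lacked Siglec-F, were low for Ly6C and carried CD64. They came from untreated male C57BL/6 mice whose age is given as 8.9 weeks in one label and 9 weeks in another.

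Every mouse carried Lyz2-Cre, which expresses Cre recombinase in macrophages, monocytes and neutrophils. The control group, called WT, carried Lyz2-Cre without a floxed gene. The Tle3cKO group (Tle3f/f Lyz2-Cre) and the Tle4cKO group (Tle4f/f Lyz2-Cre) also carried a floxed gene of the TLE family, whose proteins are Groucho-type corepressors. The sort was pooled within a genotype, over 4 mice for WT, 3 for Tle3cKO and 4 for Tle4cKO, which leaves 1 library for each. There is therefore no replicate spread, no standard error and no p-value for any value below. Tle3 stood at 38.6 FPKM in WT, 70.7 in the Tle3cKO-labelled library and 46.9 in Tle4cKO, so that the value of the targeted gene went against the Tle3cKO label or against that of WT. Tle4 stood at 8.50, 11.01 and 5.80 FPKM in the same order. Values are summed over a whole gene, and loss of single exons need not lower them.

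FPKM counts fragments by transcript length and library size, so levels of different genes can be set side by side. Ratios between libraries are given as log2 of (FPKM + 1), which understates differences of low genes, and as percent differences of the FPKM themselves. A gene was counted as apart at 1.5-fold or more on the first scale, among the 11114 genes whose mean reached 1 FPKM. Absolute sequencing depth is unknown. Steps between the lowest values put the depth of the Tle3cKO-labelled library at 0.968 and that of Tle4cKO at 1.21 relative to WT. RNA of a sorted pool was measured, so fewer cells of a type and less RNA per cell cannot be told apart.

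As background, CSF1 and IL-34 both bind CSF1R, a receptor tyrosine kinase on which most tissue macrophages depend for survival. GM-CSF binds a specific alpha chain, CSF2RA, paired with the beta chain CSF2RB, which IL-3 and IL-5 receptors share and which signals through JAK2 and STAT5. Mice have an additional beta chain, CSF2RB2, that serves the IL-3 receptor. CSF3R is the G-CSF receptor and is best known from neutrophils. TREM2 is a lipid-sensing receptor without a signalling tail of its own. It is held at the membrane by TYROBP (also called DAP12), whose cytoplasmic ITAM, a motif with a pair of tyrosines, recruits the kinase SYK. TYROBP also serves many other myeloid receptors.

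The pair of beta chains is shown first because their likeness bears on how their values can be read. Csf2rb (ENSMUSG00000071713.6, mm10 chr15:78325752-78353847, plus strand) and Csf2rb2 (ENSMUSG00000071714.7, chr15:78282507-78305721, minus strand) lie 20030 bases apart and point away from each other. Their longest complete coding sequences in GENCODE release M21, of 2688 and 2634 bases, aligned over 2628 bases with an identity of 95.2%, and 125 aligned bases differed. The 60-base coding stretch with the most differences, 13 in all, is shown for both genes with the differing bases in capitals. It lies at chr15:78338893-78338952 on the plus strand for Csf2rb and at chr15:78294379-78294438 on the minus strand for Csf2rb2.
Csf2rb: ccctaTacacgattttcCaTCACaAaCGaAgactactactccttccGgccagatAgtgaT
Csf2rb2: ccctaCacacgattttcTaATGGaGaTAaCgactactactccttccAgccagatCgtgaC
The longest identical run of the coding alignment was 242 bases. Of all 100-base windows of the Csf2rb transcript, 6.96% also occurred in the Csf2rb2 transcript, as did 18.4% of its 50-base windows. Reads from such windows cannot be placed from their letters alone. How they were divided is not known, so the split between both rows is uncertain to that extent.

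Tyrobp (ENSMUSG00000030579.10, chr7:30413760-30417585, plus strand) codes for 114 residues in its longest complete GENCODE transcript. A search for the ITAM pattern, a tyrosine and a leucine or isoleucine 3 residues on, repeated after 6 to 8 residues, found 1 match, from tyrosine 92 to residue 106. The coding bases of the match are shown with the tyrosine codons in capitals, because this motif is the signalling part that TREM2 itself lacks. They are split by an intron between chr7:30415670 and chr7:30417382.
Tyrobp ITAM: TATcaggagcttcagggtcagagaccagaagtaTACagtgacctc

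The members fell into a high and a low set in every library. Tyrobp, Csf2rb, Csf1r, Csf2rb2 and Csf2ra lay between 289 and 1174 FPKM, while Trem2, Csf3r, Csf1 and Il34 lay below 39 FPKM. Tyrobp ranked 70th of all genes in WT, Csf2rb 94th, Csf1r 184th, Csf2rb2 190th and Csf2ra 247th. The order of the means was Tyrobp, Csf2rb, Csf2rb2, Csf1r, Csf2ra, Trem2, Csf3r, Csf1 and Il34. Between neighbours in that order the ranges over the 3 libraries overlapped only for Csf2rb2 (408 to 448 FPKM) and Csf1r (387 to 459). Those genes changed places between libraries, with Csf1r the higher in WT alone.

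**Figure D1:**
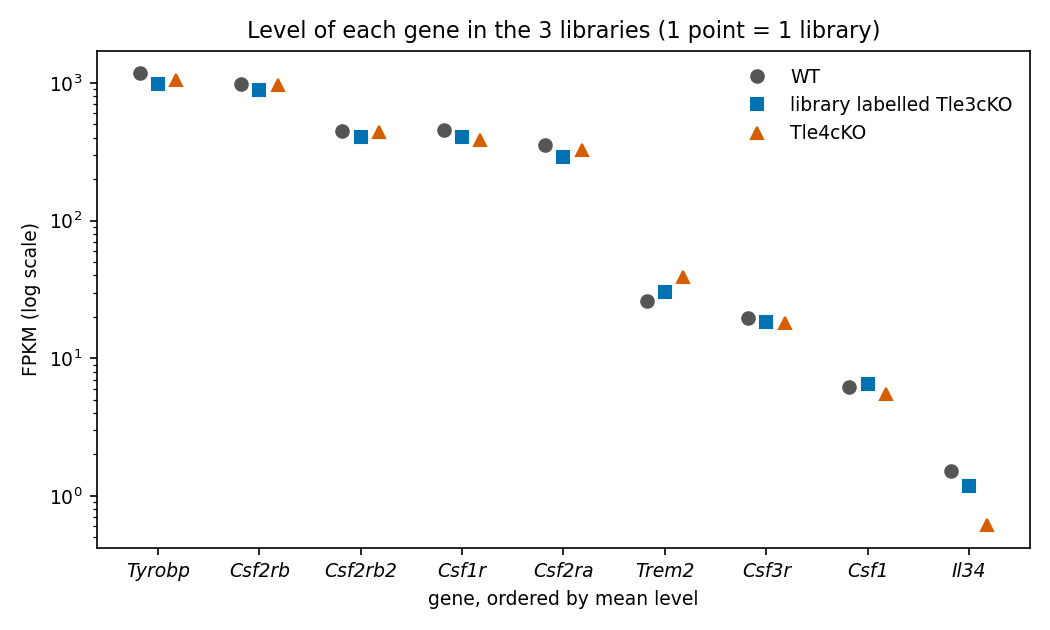
FPKM on a log axis for each of the 9 genes, 1 point per library, ordered by the mean of the 3 libraries. Tyrobp and the receptor chains Csf2rb, Csf2rb2, Csf1r and Csf2ra lie at 289 FPKM or more in every library, and the ligands Csf1 and Il34 are the lowest.

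Against WT most members were lower in each comparison, and the shifts were small. In the Tle3cKO-labelled library 7 of 9 members lay under WT, and the median log2 ratio was -0.14. Among all 11114 genes 52.4% were below WT in that comparison, with a median of -0.01. In Tle4cKO 8 of 9 were below WT, with a median of -0.13, against 50.6% and a median of -0.003 for all genes. That count includes the near copies Csf2rb and Csf2rb2 at -0.02 and -0.03, both of which turn positive when totals are made equal. Both comparisons with WT share that library, so their counts are not independent. Between Tle4cKO and the Tle3cKO-labelled library 4 of 9 members were lower in Tle4cKO, against 47.6% of all genes. The median log2 ratio was 0.09 for the members and 0.01 for all genes. No member was 1.5-fold apart in the Tle3cKO-labelled library against WT, where 2.68% of all genes were. In Tle4cKO against WT 1 member was, Il34, against 2.91% of all genes. Il34 averaged 1.10 FPKM and reached the filter only through WT and the Tle3cKO-labelled library. Its being counted thus rests on the same values that are compared. None was in Tle4cKO against the Tle3cKO-labelled library, where 3.03% of all genes were.

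**Figure D2:**
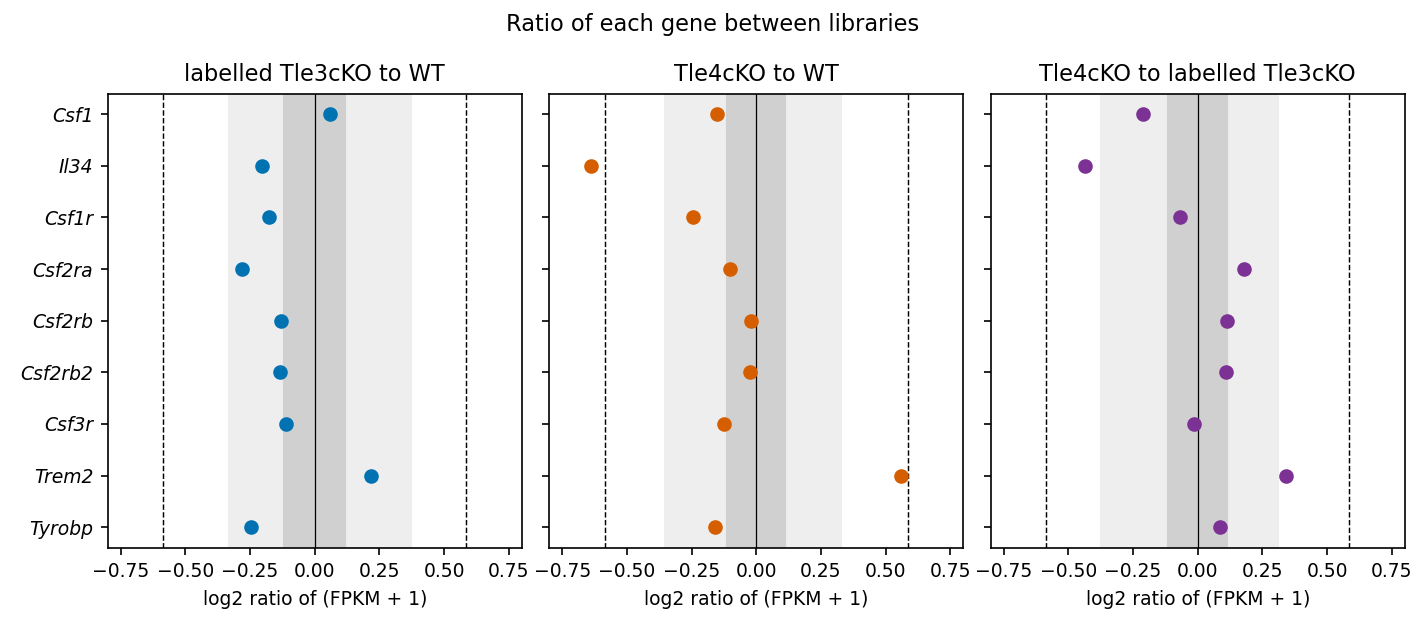
Log2 ratio of (FPKM + 1) of each of the 9 genes in the 3 comparisons, with dashed lines at 1.5-fold, a dark band from the 25th to the 75th percentile of the 11114 genes and a light band from their 5th to their 95th percentile. Il34 in Tle4cKO against WT is the only point past a dashed line, and Trem2 in the same comparison lies just inside the other one at 0.56.

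The ligands were low. Csf1 (ENSMUSG00000014599.10, chr3:107741048-107760469) encodes the cytokine that stroma and macrophages make for CSF1R. It stood at 6.22 FPKM in WT, 6.52 in the Tle3cKO-labelled library and 5.50 in Tle4cKO. Tle4cKO was the lowest library and the Tle3cKO-labelled one the highest. The log2 ratios to WT were 0.06 and -0.15. Il34 (ENSMUSG00000031750.15, chr8:110741829-110805924), the alternative CSF1R ligand, stood at 1.51, 1.18 and 0.612 FPKM in the same order. It was highest in WT and lowest in Tle4cKO, a difference of -59.4% to WT and a log2 ratio of -0.64. Of all genes 1.41% had a log2 ratio as low in that comparison, but Il34 is among them only through its values in the other libraries. The ratio to WT in the Tle3cKO-labelled library was -0.20. At a pseudocount of 5 the Tle4cKO ratio of Il34 was only -0.21, since most of so low a value is then the pseudocount. The non-coding genes Gm15894 and Gm15895 overlap Il34 on the opposite strand. The strandedness of the libraries is unknown, so their reads cannot be told from those of Il34.

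Csf1 was 4.12 times the level of Il34 in WT, 5.54 times in the Tle3cKO-labelled library and 8.98 times in Tle4cKO. The receptor exceeded its ligands by far: Csf1r was at 73.8, 62.2 and 70.3 times the level of Csf1 in the same libraries. Markers of cell types that can add these ligands moved in part with them. The 11 fibroblast, endothelial and muscle genes summed to 258 FPKM in WT, 303 in the Tle3cKO-labelled library and 289 in Tle4cKO, which is not the order of either ligand. The 5 enteric glial genes summed to 34.0, 33.7 and 11.7 FPKM, lowest in Tle4cKO as Il34 was, and all 5 were below WT there. None of the genes in these lists was listed at 0 in any library, and their part in the ligand values was not tested.

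Csf1r (ENSMUSG00000024621.16, chromosome 18, 61100598 to 61132149) was highest in WT. It stood at 459 FPKM there, 406 in the Tle3cKO-labelled library and 387 in Tle4cKO. That is a difference of -11.5% for the Tle3cKO-labelled library, a log2 ratio of -0.18, and of -15.7% for Tle4cKO, a log2 ratio of -0.25. In the first comparison 16.5% of all genes had as low a ratio, and 9.92% in the second. Over the other scalings and pseudocounts the Tle4cKO ratio lay between -0.25 and -0.22 and the other between -0.18 and -0.08. At a mean of at least 20 FPKM the genes with the most similar pair of ratios were Osgin1, Rap2b and Cxcl16, at distances of 0.007, 0.015 and 0.017 on the log2 scale. Of 3636 genes compared, 186 lay within 0.1 of Csf1r, so such a pattern over 3 libraries is a common one.

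The GM-CSF receptor chains were lowest in the Tle3cKO-labelled library. Csf2ra (ENSMUSG00000059326.7, chr19:61223957-61228429), the chain that gives specificity for GM-CSF, stood at 351 FPKM in WT, 289 in that library and 327 in Tle4cKO. The difference to WT was -17.9% for the Tle3cKO-labelled library, a log2 ratio of -0.28 that 6.78% of all genes reached or passed downwards. It was the lowest ratio among the members in that comparison. For Tle4cKO the difference was -6.89%, a log2 ratio of -0.10.

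Csf2rb, the signalling chain, stood at 975 FPKM in WT, 890 in the Tle3cKO-labelled library and 962 in Tle4cKO. Csf2rb2 stood at 448, 408 and 440 FPKM in the same order. Both were lowest in the Tle3cKO-labelled library, at -8.76% and -8.98% against WT. In Tle4cKO they were at -1.41% and -1.79% against WT, with log2 ratios of -0.02 and -0.03 that turn to 0.01 and 0.004 when totals are made equal. Csf2rb was 2.18 times the level of Csf2rb2 in each of the 3 libraries. Summed, the pair stood at 1423, 1298 and 1402 FPKM. Hax1 and Zbtb7a were among the genes most similar to Csf2rb, and 890 of 3636 genes lay within 0.1 of it.

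The beta chain was in excess of its GM-CSF partner: Csf2rb was 2.78 times the level of Csf2ra in WT, 3.08 times in the Tle3cKO-labelled library and 2.94 times in Tle4cKO. It also exceeded Csf1r, at 2.13, 2.19 and 2.49 times. Dendritic cells carry GM-CSF receptors as well, and their 9 marker genes summed to 453 FPKM in WT, 379 in the Tle3cKO-labelled library and 485 in Tle4cKO. None of the 9 was listed at 0. Ccr7, the chemokine receptor that guides migrating dendritic cells to lymph nodes, made up most of each sum, at 305, 216 and 316 FPKM. The sum was lowest in the Tle3cKO-labelled library through Ccr7. The other 8 genes summed to 147, 163 and 168 FPKM, lowest in WT, with Cd209a the largest part at 63.1, 78.1 and 68.2. They did not move as one. Zbtb46, Xcr1 and Clec9a were lowest in the Tle3cKO-labelled library, as Csf2ra was. Flt3, Cd209a, Itgae and Kit were lowest in WT, and Clec10a in Tle4cKO. The part of these cells in the receptor values was not tested. The 8 mast cell and basophil genes summed to between 10.5 and 14.0 FPKM, most of it from Hdc, the histidine decarboxylase gene.

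The other chains and ligands of this receptor family were mostly near the limit of the data. Il3ra, the IL-3 receptor alpha chain, stood at 21.9 FPKM in WT, 17.9 in the Tle3cKO-labelled library and 18.5 in Tle4cKO, lowest in the former as Csf2ra was. Il5ra lay between 0.306 and 0.507 FPKM, and Il3 was listed at 0 in every library. The remaining ligands of the list were low and highest in the Tle3cKO-labelled library. Csf2, the GM-CSF gene, stood at 0.523, 1.39 and 0.800 FPKM in WT, that library and Tle4cKO. Il5, a lymphocyte cytokine, stood at 1.65, 3.96 and 2.28 FPKM and Csf3, the G-CSF gene, at 0.516, 1.71 and 1.15. Of the 6 genes on the list 3 passed the filter at 1 FPKM. Il5 and Csf3 were at least 1.5-fold above WT in the Tle3cKO-labelled library, as were 1.59% of all genes. No gene of the list was in Tle4cKO, against 1.21% of all genes. The naming rule took Il3ra alone, and the others were named after their values were seen. Csf3 reached a mean of 1 FPKM only through the knockout libraries, so its being counted rests on the same values that are compared.

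Csf3r (ENSMUSG00000028859.14, chr4:126024550-126044440) varied little. It stood at 19.7 FPKM in WT, 18.2 in the Tle3cKO-labelled library and 17.99 in Tle4cKO, with log2 ratios to WT of -0.11 and -0.13. Csf1r was 23.2, 22.3 and 21.5 times as high. Cpq, Ndfip2 and Chuk had the most similar ratios, and 612 of 3637 genes lay within 0.1. Neutrophils carry far more of this receptor than macrophages do, so their markers are given beside it. Of 13 neutrophil genes 12 had a row, Camp was listed at 0 in all libraries, and Elane, Mpo, Ltf and Ngp lay below 0.4 FPKM in each. The 12 summed to 1269 FPKM in WT, 1318 in the Tle3cKO-labelled library and 1097 in Tle4cKO. Most of that was Il1r2, the decoy IL-1 receptor, at 1092, 1139 and 922 FPKM. Without Il1r2 the other 11 summed to 177, 180 and 175 FPKM, highest in the Tle3cKO-labelled library. The calprotectin genes went opposite ways, S100a8 at 81.4, 93.5 and 102 FPKM and S100a9 at 84.0, 76.6 and 67.0. The remaining 9 genes summed to 11.4, 9.55 and 5.73 FPKM, highest in WT and lowest in Tle4cKO. Csf3r had that order too, but its log2 ratio of Tle4cKO to the Tle3cKO-labelled library was only -0.015. Mmp8, a collagenase of neutrophil granules, stood at 2.72, 1.83 and 0.844 FPKM and Retnlg at 4.80, 4.55 and 2.05. Both were at least 1.5-fold below WT in Tle4cKO, as were 1.70% of all genes. Mmp8 reached a mean of 1 FPKM only through the other libraries. The receptor gene Cxcr2 stood at 1.35, 1.16 and 1.36. The part of neutrophils in the values of Csf3r was not tested.

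Trem2 was the member that stood highest above WT. Trem2 (ENSMUSG00000023992.14, chr17:48346401-48354147) was at 25.9 FPKM in WT, 30.3 in the Tle3cKO-labelled library and 38.6 in Tle4cKO. WT was the lowest library and Tle4cKO the highest. The difference of Tle4cKO to WT was 49.1%, a log2 ratio of 0.56, just under the threshold of 0.58. It reached 0.59 when totals were made equal, so the count of members apart depends on the scaling. Of all genes 1.36% had a ratio at least as high. The ratio of the Tle3cKO-labelled library to WT was 0.22, which 13.3% of genes reached, and that of Tle4cKO to the Tle3cKO-labelled library was 0.34, which 4.03% reached. Of 3636 genes 3 had a pair of ratios within 0.1 of that of Trem2, namely Unc119b, 2410004N09Rik and Cystm1. The Tle4cKO ratio of Trem2 lies above the 95th percentile of all genes, 0.33, where genes are sparse. The count of neighbours therefore adds nothing to the ratios themselves.

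Tyrobp moved the other way. It stood at 1174 FPKM in WT, 989 in the Tle3cKO-labelled library and 1050 in Tle4cKO, with differences to WT of -15.8% and -10.5% and log2 ratios of -0.25 and -0.16. WT was thus the highest library for the adaptor and the lowest for the receptor. The adaptor exceeded Trem2 by 45.3 times in WT, 32.6 times in the Tle3cKO-labelled library and 27.2 times in Tle4cKO. Fcer1g, the related adaptor of Fc receptors, had a similar order, at 845, 720 and 721 FPKM. It was at 0.72, 0.73 and 0.69 times the level of Tyrobp. Hcst, which encodes the adaptor DAP10 and lies 126 bases from Tyrobp on the opposite strand, stood at 22.7, 14.4 and 16.3 FPKM, log2 ratios to WT of -0.63 and -0.46. All 3 adaptor genes were highest in WT.

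The list of other receptors and adaptors of the ITAM type has 13 genes, not all of which carry an ITAM. In the Tle3cKO-labelled library 3 of them were at least 1.5-fold below WT and none above. They were Sirpb1a, Sirpb1b and Hcst. Among all genes 1.09% were that far below WT in this comparison. In Tle4cKO Sirpb1a and Sirpb1b were, against 1.70% of all genes, and again none was above. Sirpb1a, a SIRP-beta receptor that uses TYROBP, stood at 10.6 FPKM in WT, 3.98 in the Tle3cKO-labelled library and 3.47 in Tle4cKO, log2 ratios of -1.22 and -1.38. Sirpb1b, a near copy named after its values were seen, stood at 6.45, 3.84 and 3.09 FPKM. How shared reads of these close relatives were divided is not known, so their rows are uncertain. Among other receptors that signal through TYROBP, Trem1 stood at 10.95, 10.6 and 12.3 FPKM, and Cd300lb at 23.5, 24.5 and 25.6. The list's median log2 ratios were -0.23 and -0.15, against -0.01 and -0.003 for all genes.

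The 15 genes of the cascade below the ITAM had no member 1.5-fold apart in any comparison. Among all genes the share was 2.68%, 2.91% and 3.03% in the 3 comparisons, so a count of 0 among 15 is near it. Their median log2 ratio was -0.08 in the Tle3cKO-labelled library and 0.03 in Tle4cKO, and the former turned to 0.01 with equal totals. Syk stood at 153, 139 and 159 FPKM in WT, the Tle3cKO-labelled library and Tle4cKO. Bcl10, an adaptor on the way to NF-kB, had the log2 ratio of largest size in the Tle3cKO-labelled library, -0.25, at 87.8 and 73.7 FPKM in WT and that library. Dok3, an inhibitory adaptor, had that in Tle4cKO, 0.24, at 20.6 FPKM in WT and 24.4 in Tle4cKO.

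Lipid-associated macrophage genes, many of which depend on TREM2 in other tissues, were described beside it. Of 19 genes 1 was 1.5-fold above WT in the Tle3cKO-labelled library and none below, and none was apart in Tle4cKO. Among all genes 1.59% were that far above WT in the former, and 2.91% were apart in Tle4cKO. The median log2 ratios were 0.06 and 0.08. The gene past the threshold was Cst7, a cystatin, at 3.39 FPKM in WT, 9.63 in the Tle3cKO-labelled library and 5.34 in Tle4cKO. Spp1, which encodes osteopontin, stood at 40.4, 58.0 and 60.6 FPKM, just under the threshold in both comparisons. Apoe, which encodes a lipoprotein that TREM2 binds, stood at 9287, 8278 and 8851 FPKM and was highest in WT. The order of Trem2, lowest in WT and highest in Tle4cKO, was that of 6 of the 19 genes, Spp1, Cd9, Fabp5, Ctsd, Plin2 and Lipa, and of 15.8% of all 11114 genes. Fabp5, a fatty acid carrier, stood at 74.8, 85.7 and 95.6 FPKM and Plin2, a lipid droplet protein, at 281, 324 and 370. In Tle4cKO 13 of the 19 were above WT and 6 below, where 50.6% of all genes were below. Those below were Apoe, Gpnmb, Cd36, Itgax, Axl and Clec7a. Clec7a stood at 407, 288 and 366 FPKM, Itgax at 171, 153 and 164 and Gpnmb at 131, 183 and 128.

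Downstream of the CSF receptors no listed gene was 1.5-fold apart from WT. Among all genes 2.68% were in the Tle3cKO-labelled library and 2.91% in Tle4cKO, so a count of 0 in lists this short is near that share. Among 19 genes of signalling close to CSF1R the median log2 ratio was -0.07 in the Tle3cKO-labelled library and -0.02 in Tle4cKO, both of which turn positive, to 0.02 and 0.007, with equal totals. Pik3cg, a PI3-kinase catalytic subunit, stood at 10.7, 11.6 and 14.7 FPKM in WT, the Tle3cKO-labelled library and Tle4cKO. Fgr, a Src-family kinase, stood at 16.5, 14.7 and 12.4 FPKM, which is the reverse order.

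The 12 genes of the JAK-STAT list had medians of -0.12 and -0.07. Cish, a feedback inhibitor that STAT5 induces, stood at 21.0, 16.6 and 25.2 FPKM, and like the GM-CSF receptor chains was lowest in the Tle3cKO-labelled library. Socs3, a feedback inhibitor of G-CSF and IL-6 family receptors, stood at 75.9, 71.2 and 60.9 FPKM, lowest in Tle4cKO. Jak2, the kinase bound to the beta chain and named after its values were seen, stood at 87.1, 72.3 and 74.96.

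Proteases that shed CSF1R and TREM2 from the cell surface, with the gamma-secretase genes that cut the remnant, had medians of -0.14 and -0.04 over 7 genes, none of them 1.5-fold apart. Rhbdf2, which brings the sheddase ADAM17 to the surface, stood at 34.97, 30.1 and 29.8 FPKM, and Psen2, a presenilin, at 23.5, 20.8 and 24.7. Transcription factors known to act at Csf1r, 8 in all, had medians of -0.06 in both comparisons, of which that of the Tle3cKO-labelled library turns to 0.04 with equal totals, and none was 1.5-fold apart. Irf8 stood at 136, 119 and 148 FPKM and Cebpb at 543, 475 and 478. Spi1, which encodes PU.1 and was named after its values were seen, stood at 491, 476 and 484, a narrower range than that of Csf1r. Among all genes 2.68% and 2.91% were 1.5-fold apart from WT, so none among 7 or 8 genes is near that share.

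**Figure D3:**
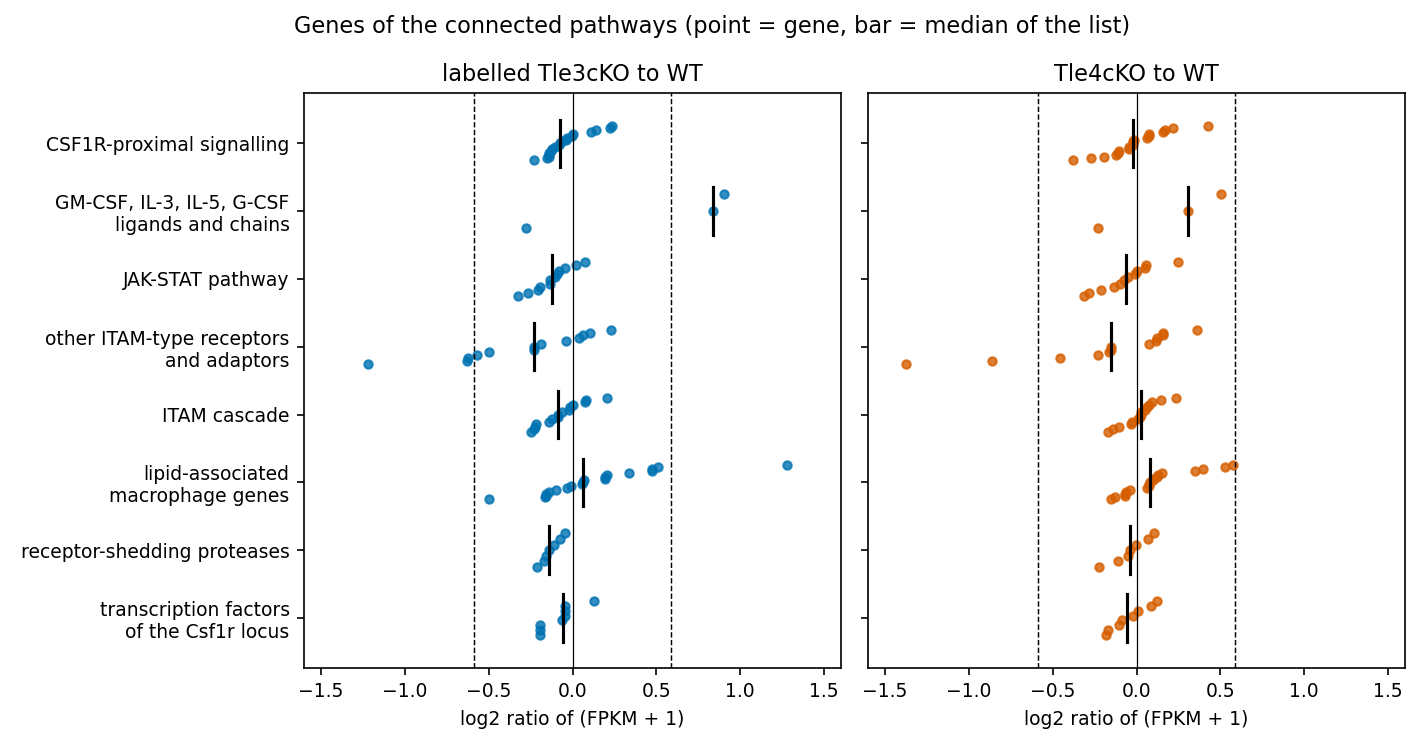
Log2 ratio of (FPKM + 1) to WT for genes averaging 1 FPKM or more in 8 lists around these receptors (point, gene; bar, median of the list; dashed lines, 1.5-fold), for the Tle3cKO-labelled library and for Tle4cKO. The ITAM-type receptors hold the lowest point in both panels, Sirpb1a, and the cascade and transcription factor lists lie inside the dashed lines. Of all genes 2.68% lie outside those lines for the Tle3cKO-labelled library and 2.91% for Tle4cKO.

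Promoter stretches of the receptor chains are shown because PU.1 is known to act at many of these genes. RefSeq start sites (GRCm38.p6) from 250 bases before to 50 bases after the start were searched on both strands for GAGGAA, a core that PU.1 recognises, whose complement reads TTCCTC. Csf1r was not searched here, because no sequence of its chromosome is used. Of the 8 members searched, 5 had an entry. The motif was in 4 of them, Csf2ra, Csf2rb2, Csf3r and Trem2, and not in Csf1. Of all 32851 promoters of that length 28.3% held it. The stretches lie at chr19:61228419-61228453 (minus strand), chr15:78305856-78305915 (minus), chr4:126024546-126024605 (plus) and chr17:48346334-48346393 (plus). The GENCODE bounds given above begin further upstream for Csf2ra, at 61228429, and Csf3r, at 126024550. The stretches of these genes thus lie partly inside the GENCODE genes. Matches are in capitals.
Csf2ra: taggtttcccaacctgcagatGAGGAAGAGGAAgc
Csf2rb2: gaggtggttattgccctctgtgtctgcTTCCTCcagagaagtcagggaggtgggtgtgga
Csf3r: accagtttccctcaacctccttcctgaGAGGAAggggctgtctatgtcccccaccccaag
Trem2: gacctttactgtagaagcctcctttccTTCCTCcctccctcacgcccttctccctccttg
The matches run in the GAGGAA direction in Csf2ra, where 2 adjoin, and in Csf3r. In the shown stretches of Csf2rb2 and Trem2 they run the other way. The motif was present in Trem2, which was above WT in both other libraries, and in receptor chains that were below it. Its part in these values was not tested.

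The macrophage list had the highest sum of the 10 marker lists in each library, beside markers of other cell types. Cd14, C1qa and C1qb made up most of its sum, at 1302, 1243 and 1443 FPKM in WT. Mertk stood at only 4.46, 7.65 and 6.17 FPKM in WT, the Tle3cKO-labelled library and Tle4cKO, and Cx3cr1 at 8.35, 7.64 and 11.4. The dendritic cell genes, given above, summed to 453, 379 and 485 FPKM. All 10 macrophage genes were present, summing to 5087 FPKM in WT, 4673 in the Tle3cKO-labelled library and 4939 in Tle4cKO, and Fcgr1, which encodes the CD64 of the gate, stood at 33.3, 36.0 and 39.2. Genes of the cells gated out, eosinophils and Ly6C-high monocytes, summed to between 15.6 and 18.4 FPKM, with Epx listed at 0 in every library. B and plasma cell genes summed to 99.0, 133 and 277 FPKM, and the 9 T, NK and innate lymphoid genes to 412, 420 and 399, most of it Il7r and Cd4. Without those the other 7 summed to 3.08, 5.21 and 5.23 FPKM, lowest in WT as Il5 was. The T cell receptor gene Cd3e stood at 0.401, 1.55 and 1.70 FPKM, at least 1.5-fold above WT in both other libraries. Of all genes 1.59% were in the Tle3cKO-labelled library and 1.21% in Tle4cKO. Cd3e reached a mean of 1 FPKM only through those libraries. The part of T cells in the value of Il5 was not tested. The 9 colonic epithelial genes summed to 2.92, 6.38 and 40.4 FPKM. Epithelial and B cell sums were therefore highest in the library in which Trem2 was highest. Their part in the value of Trem2 was not tested.

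**Figure D4:**
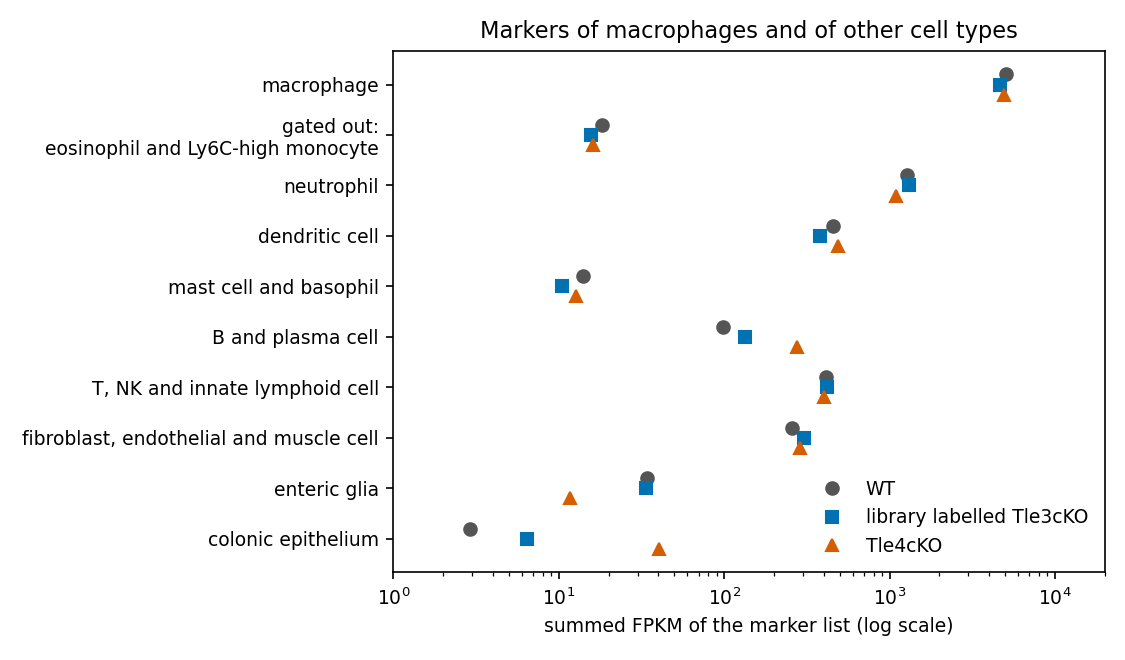
Summed FPKM on a log axis of 10 marker lists, 1 point per library. The macrophage list is the highest at 4673 FPKM or more in each library, the epithelial list is highest in Tle4cKO at 40.4 and the glial list lowest there at 11.7.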

How the data were processed

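RNA-seq libraries of 3 pools of colonic macrophages were used, grouped by sample title. Each group has 1 library. Per the file headers, the values that the authors deposited are FPKM for each gene. TopHat2 2.1.0, Cufflinks 2.2.1 and the build mm10 are named in the submitters' processing notes, without their roles. Positions are from GENCODE M21 of that build. The members, the 8 gene lists and the 10 marker lists were chosen with earlier results of these data known.

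The log2 ratio of (FPKM + 1) was computed for every gene that averaged 1 FPKM or more, and genes past 1.5-fold were counted. No test was possible with 1 library per group. FPKM is relative to all transcripts, so abundant genes can lower others. Relative depth came from the commonest ratio of values under 0.3 FPKM.

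Besides the members and targeted genes, the rule named from each list the 2 members with the largest ratios to WT at a mean of at least 5 FPKM, or up to 4 past 1.5-fold. It also named the 3 genes nearest to Csf1r, Csf2rb, Csf3r and Trem2 in both ratios; 1 gene that the rule takes is not reported here. Trem1, Cd300lb, Treml4, Clec5a, Syk, Apoe, Fcer1g, genes with the order of Trem2 and genes used to describe a marker list were named with their values known. So were the lipid-associated genes below WT in Tle4cKO. Alternatives were pseudocounts of 0.1 and 5, no filter and one at 5 FPKM, thresholds of 1.25-fold and 2-fold, 3 scalings (equal totals, median ratio, upper quartile), and a sum of Csf2rb and Csf2rb2. The ratio calculation was run on simulated data with folds set in advance and no pseudocount, which checks the arithmetic only. Python 3.11.15, numpy 2.4.6, pandas 2.3.3, Biopython 1.88 and matplotlib 3.10.9 were used.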

Additional observations from a re-analysis of the deposited data

How the results depend on the processing

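No paired analysis was possible because each group has 1 library. In Tle4cKO against WT the count of members at least 1.5-fold apart was 1. It was 0 with a pseudocount of 5, with a filter at 5 FPKM, which leaves Il34 out, and at 2-fold. It was 2 with totals made equal and at the lower fold threshold. In Tle4cKO against the Tle3cKO-labelled library the count was 0, and it was 1 with a pseudocount of 0.1 and 2 at the lower fold threshold. The other alternatives gave the same counts, as did all of them for the Tle3cKO-labelled library against WT. Of 135 member ratios under other pseudocounts and scalings, 130 kept their sign and their side of 1.5-fold. The exceptions were Csf2rb, Csf2rb2 and Trem2 in Tle4cKO against WT with equal totals, and Il34 in Tle4cKO with a pseudocount of 5 against WT and of 0.1 against the Tle3cKO-labelled library (log2 ratio -0.84). Of 120 list medians 111 kept both. Equal totals moved the median of all genes by 0.09 in the Tle3cKO-labelled library against WT. Absolute depth is unknown, which limits Il34, Csf2, Il5 and Csf3 most.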
